A study of Mus musculus with 2 samples.

Results

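Fatty acid oxidation in mitochondria and peroxisomes is described here through 35 genes, of 20651 genes matched in all. They were chosen by name for their place in the pathway, with earlier results of these data known, and found on the arrays by RefSeq accession. RNA came from mouse CD4 T cells cultured toward the TH9 fate, helper cells known for making IL-9. One culture was wild-type and the other, SIRT1flox/flox-CD4-Cre, came from mice with floxed alleles of Sirt1, an NAD-dependent deacetylase, and a Cre recombinase under Cd4 control. Each genotype had 1 single-colour (Cy3) array. Naive cells (CD4+TCR+CD62Lhi CD44lo) were sorted from spleen and lymph nodes of both kinds of mice, activated with antibodies to CD3 (2 µg/ml) and to CD28 (2 µg/ml), and cultured with IL-4 (10 ng/ml), TGFβ1 (2 ng/ml) and IL-2 of human sequence (100 U/ml). The culture lasted 5 days by the sample descriptions and 5 to 6 days by the protocol. Cd4-driven Cre is active from the thymus on, so it also acts in cells of the CD8 lineage, and neither the number of mice nor the alleles carried by the wild-type mice are given in the labels. With a single array for each genotype, differences have no replicate behind them and none could be tested.

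In mitochondria, long-chain fatty acids are first joined to coenzyme A, carried across the inner membrane as carnitine esters, and then shortened in repeated rounds of dehydrogenation, hydration, a further dehydrogenation and thiolytic cleavage. Electrons of the initial step pass through the electron transfer flavoprotein to ubiquinone. Peroxisomes run a similar cycle on very long and branched chains, starting with an oxidase. Activated effector T cells rely largely on glycolysis, while memory and regulatory T cells are known for greater use of fatty acid oxidation. SIRT1 is known in liver and muscle as a deacetylase of PGC-1α, the coactivator encoded by Ppargc1a that raises expression of oxidation genes together with PPAR and ERR nuclear receptors.

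Most of the pathway gave nearly the same signal on both arrays, and no gene of it had a 2-fold higher signal under the knockout label. Of the 35 genes, 33 had a probe well above background on both arrays, 2 on 1 array only, and 0 on neither. Values are log2 processed signals minus the 75th percentile of each array, and differences are knockout minus wild-type. On the array labelled knockout 22 of these 33 genes were higher and 11 lower, with a median difference of 0.05 on the log2 scale, and differences above 0 made up 50.4% of the 12958 genes measured on both arrays, whose median was 0.00. A difference of at least 2-fold was seen higher in 0 of the 33, against 3.95% of all genes, and lower in 1 of the 33, against 3.63% of all genes. The scanner software gives each spot an error from its own error model, and the errors of both arrays added in quadrature are the ± values below. Where a probe was spotted repeatedly, as for Cpt1a, Acaa2, Amacr and Pparg, the error is that of the mean over its spots and so is smaller. That error covers a single hybridisation and not the spread between cultures. The difference exceeded it upward in 9 of the 33 genes and downward in 7, while over all genes it did so upward in 30.3% and downward in 30.8%.

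**Figure D1:**
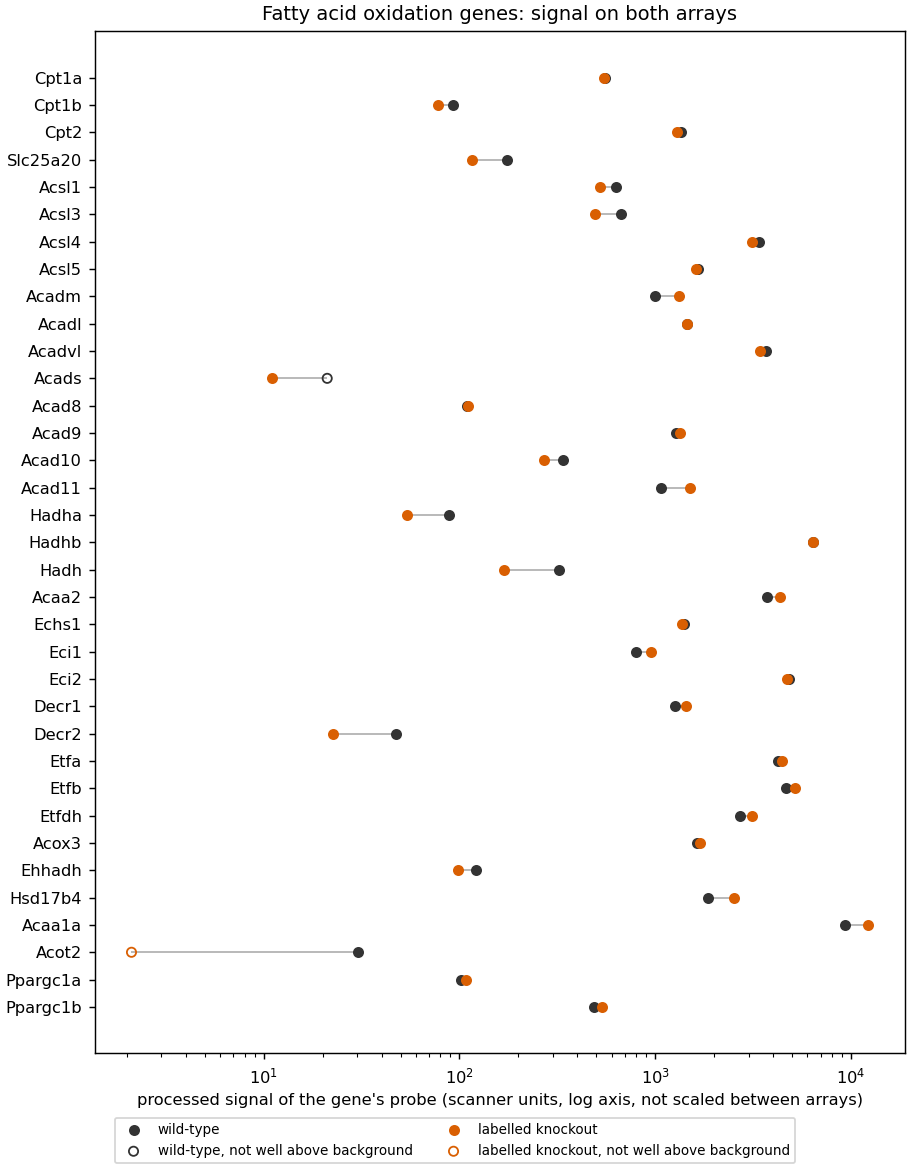
Processed signal (scanner units, log axis, not scaled between arrays) of each of the 35 genes, black for wild-type and orange for the array labelled knockout, with open circles where the probe was not well above background. Most pairs of points overlap or nearly so, and the wide gaps include those of the dim probes of Decr2, Acads and Acot2 and of the brighter Hadh probe.

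The Sirt1 probe read 3240 for wild-type and 2920 for the array labelled knockout (-0.08 ± 0.20, turning to 0.10 with median centring). The labels do not say which exons are floxed, so this probe does not check the genotype, and every direction below rests on the label. Markers of other cell types gave signal on both arrays, and not as a faint trace. The summed signals given next for granulocyte and mast cell, B cell, and macrophage and dendritic cell markers exceeded the T cell sum on each array. Brightness also depends on the probe, so these sums give no share of cells. Of 7 B cell markers, all 7 were lower on the array labelled knockout, with summed signals of 97455 for wild-type and 77709 for the other array. Of 7 macrophage and dendritic cell markers, 6 were higher, although their summed signals of 83590 and 83364 were nearly equal because Siglech gave most of both. CD8 and NK cell markers were higher in 6 of 7 (sums 11214 and 12814), granulocyte and mast cell markers in 5 of 6 (125159 and 128066), and T cell markers in 3 of 8 (73410 and 68530), with a range of -1.13 to 0.23. With arrays centred on their median, and with normexp, a model-based background correction, 5 of 8 T cell markers and 2 of 7 B cell markers were higher. Of the erythroid markers 3 of 5 were above background on each array (sums 1176 and 1010.3), and Klf1 and Hbb-bs were so on neither. Adipocyte markers were above background in 2 of 7 for wild-type and 5 of 7 for the other array, with sums of 1200 and 2294. Most of both sums came from Fabp4 (678 and 1610). Over all gene spots 57.1% and 65.3% were above background on these arrays, whose lowest signals well above background were 24.6 and 9.60. Plin1 and Lep were above background on neither array. Cidea, a lipid droplet protein of brown fat, read 4.98 for wild-type, not well above background, and 121 for the array labelled knockout, at least 5.15-fold higher. These arrays measure bulk RNA, so fewer cells of a type and less RNA per cell cannot be told apart, and the part of these cell types in the values below was not tested.

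The sequence between the starts of Hadha and Hadhb is shown because these genes, which encode the α and β subunits of the mitochondrial trifunctional protein, lie head to head and gave unlike values on these arrays. The α subunit carries the hydratase and long-chain hydroxyacyl-CoA dehydrogenase activities and the β subunit the thiolase. In the RefSeq promoter table (GRCm38.p6), which holds windows from 250 bases before to 50 after a gene's start for 29 of the 35 genes, their start sites are 272 bases apart on opposite strands, and both windows cover the stretch chr5:30155003-30155230. It is printed 5′ to 3′ on the plus strand, reading toward Hadhb, with the letters GGGCGG, a GC box, in capitals.
Hadha and Hadhb, shared upstream stretch: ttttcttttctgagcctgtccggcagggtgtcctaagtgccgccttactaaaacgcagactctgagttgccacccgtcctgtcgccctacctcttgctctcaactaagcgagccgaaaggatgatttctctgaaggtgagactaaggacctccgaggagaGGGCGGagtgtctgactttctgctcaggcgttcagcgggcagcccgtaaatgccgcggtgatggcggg
The stretch is 228 bases long with 57.0% G and C and 15 CpG pairs, and the GC box letters occur 1 time. GGGCGG on either strand was found in 35.7% of all 32851 promoter windows and in 22 of 30 windows of these genes (73.3%), a motif chosen after the sequences were seen. DR1, a pair of AGGTCA sites spaced by 1 base that PPAR and its partner RXR bind, was in 0 of the 30 windows and in 0.0396% of all windows. TCAAGGTCA, the letters bound by estrogen-related receptors, was in 0 of the 30 and in 0.423% of all. AGGTCA alone, which is part of both, was in the windows of Acadm, Acadvl, Cpt1a and Echs1, 4 of 30 (13.3%), against 16.3% of all windows. Both strands were read, and a match or its absence describes only the letters of these windows.

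Hadhb had signals of 6430 (wild-type) and 6370 (labelled knockout). Its difference of 0.05 ± 0.20 was within the scanner error. Hadha had signals of 88.4 and 53.8, a difference of -0.65 ± 0.23, or 1.57-fold lower on the array labelled knockout. The probes of this head-to-head pair thus gave unlike differences, since one lay at 0 within error and the other below it by more than its error. The Hadha probe was dim, and dim probes were lower on the array labelled knockout over all genes, as given further below. With a loess curve fitted between the arrays, which removes that dependence on signal, Hadha stood at -0.46, and it ran from -0.99 to -0.46 over 6 other scalings and sources. These are median centring, a 75th percentile over probes above background only, quantile normalization, loess, normexp and the deposited table. All reuse the same arrays, and some shift every gene alike or nearly repeat one another, so they are not separate checks. Each of the Hadha and Hadhb values comes from 1 probe.

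The carnitine shuttle, which brings long chains into mitochondria, was close to level at its regulated step. Cpt1a encodes the outer membrane carnitine palmitoyltransferase that sets the rate of entry. Its brighter probe was spotted 10 times on the array. On the wild-type array 9 spots without an outlier flag ran from 543 to 565 with a median of 550 (mean 552 ± 7.4, SD over spots), and on the array labelled knockout 10 spots ran from 533 to 563 with a median of 546 (mean 546 ± 9.38). The spots of the arrays overlapped before scaling. After scaling, the means differed by 0.05 ± 0.07, where the spots within an array had SDs of 0.02 on both arrays. A second Cpt1a probe, with a single spot and signals of 31.7 and 17.7, gave -0.78 ± 0.34. The probes of Cpt1a therefore disagree in sign, and the brighter one is used in the counts.

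Cpt2, the inner membrane transferase that turns acylcarnitines back to acyl-CoA, read 1350 for wild-type and 1300 for the array labelled knockout (0.01 ± 0.20). Its other probe, at 8.06 and 7.99, was too dim on each array to count as well above background. Cpt1b, the muscle form of the outer enzyme, had signals of 92.4 and 77.5 and a difference of -0.19 ± 0.22, and its other probe was likewise dim on both arrays, not well above background, at 9.32 and 8.58. Slc25a20, the translocase that exchanges acylcarnitine for carnitine across the inner membrane, was the 1 shuttle gene outside its error. Its signals were 175 and 116, a difference of -0.53 ± 0.21, or 1.44-fold lower on the array labelled knockout, and it stayed beyond that error in all 6 other scalings and sources (-0.74 to -0.34).

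Acyl-CoA synthetases, which activate free fatty acids before oxidation or storage, were lower on the array labelled knockout in 3 of 4 genes. Acsl3, the form found on the endoplasmic reticulum and lipid droplets, had signals of 669 and 492, with a difference of -0.38 ± 0.20. It was the 1 synthetase beyond the scanner error. Acsl1 had -0.19 ± 0.20 and a dimmer second probe -0.11 ± 0.23. Acsl4, which prefers arachidonate, had -0.05 ± 0.20, but 0.14 when centred on the median and 0.13 under normexp. Acsl5, a form of mitochondria and endoplasmic reticulum, had 0.02 ± 0.20.

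Acyl-CoA dehydrogenases carry out the initial oxidation step and differ in the chain length they accept. Of 8 genes, 7 were measured on both arrays, 5 higher and 2 lower. Acadm, the medium-chain enzyme, had signals of 1000 (wild-type) and 1330 (labelled knockout), 1.39-fold higher (0.48 ± 0.20). Acad11, a family member acting on longer chains, had signals of 1070 and 1500, 1.47-fold higher (0.55 ± 0.20), the highest difference among the 33 genes. Both stayed beyond their error in all 6 other scalings and sources. The main long-chain enzymes of the family were level, with Acadvl at -0.04 ± 0.20 and Acadl at 0.07 ± 0.20. The sign of Acadvl turned under median centring (0.15) and normexp (0.20).

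Acad10, a less studied family member, read 339 for wild-type and 269 for the array labelled knockout, lower by more than its error (-0.27 ± 0.21), though inside it with median centring (-0.08) and loess (-0.20). Acad9, which also serves in complex I assembly, had 0.13 ± 0.20. Acad8, which acts on isobutyryl-CoA in valine breakdown, had 0.09 ± 0.22, and -0.53 with normexp. Acads, the short-chain enzyme, was dim. It read 21.1 for wild-type, not well above background, and 11 for the array labelled knockout, well above background there. The lowest signals counted as well above background were 24.6 and 9.60 on these arrays, so no fold is given for Acads.

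The later steps of the mitochondrial cycle held genes on both sides of 0. Hadh, the short- and medium-chain 3-hydroxyacyl-CoA dehydrogenase, had signals of 321 (wild-type) and 168 (labelled knockout), 1.83-fold lower (-0.87 ± 0.21). Its difference ran from -0.87 to -0.68 in the other 6 scalings and sources. Acaa2, the mitochondrial 3-ketoacyl-CoA thiolase that closes the cycle, was spotted 10 times and lay on the other side of 0. Its spots ran from 3590 to 3840 with a median of 3720 on the wild-type array (mean 3726 ± 66.2, SD, 10 spots) and from 4260 to 4430 with a median of 4325 on the array labelled knockout (mean 4322 ± 54.7, 10 spots). These spots did not overlap between the arrays, and the difference of 0.28 ± 0.06 was larger than the SDs of 0.03 and 0.02 over spots. The spots share 1 RNA sample per array, so they show the precision of the array and not that of the genotype. Echs1, the short-chain hydratase, had 0.03 ± 0.20.

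Auxiliary enzymes, which reshape the bonds of unsaturated chains so that the cycle can proceed, included the 1 gene past 2-fold among the 33 measured on both arrays. Decr2, the peroxisomal 2,4-dienoyl-CoA reductase, had signals of 47.2 (wild-type) and 22.5 (labelled knockout), 2.01-fold lower (-1.004 ± 0.30). It lies at the threshold itself: the difference was -0.82 after centring on the median, -0.79 with loess, -0.81 in the deposited table and -1.31 with normexp. Decr1, its mitochondrial counterpart, had 0.25 ± 0.20 by a probe at 1260 and 1430, and -0.06 ± 0.28 by a dimmer probe at 45.9 and 42.1. Eci1, the mitochondrial enoyl-CoA isomerase, had signals of 800 and 953 and was 1.25-fold higher (0.32 ± 0.20). Eci2, an isomerase of peroxisomes and mitochondria, had 0.02 ± 0.20, which turned slightly below 0 with quantile normalization, loess and in the deposited table.

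**Figure D2:**
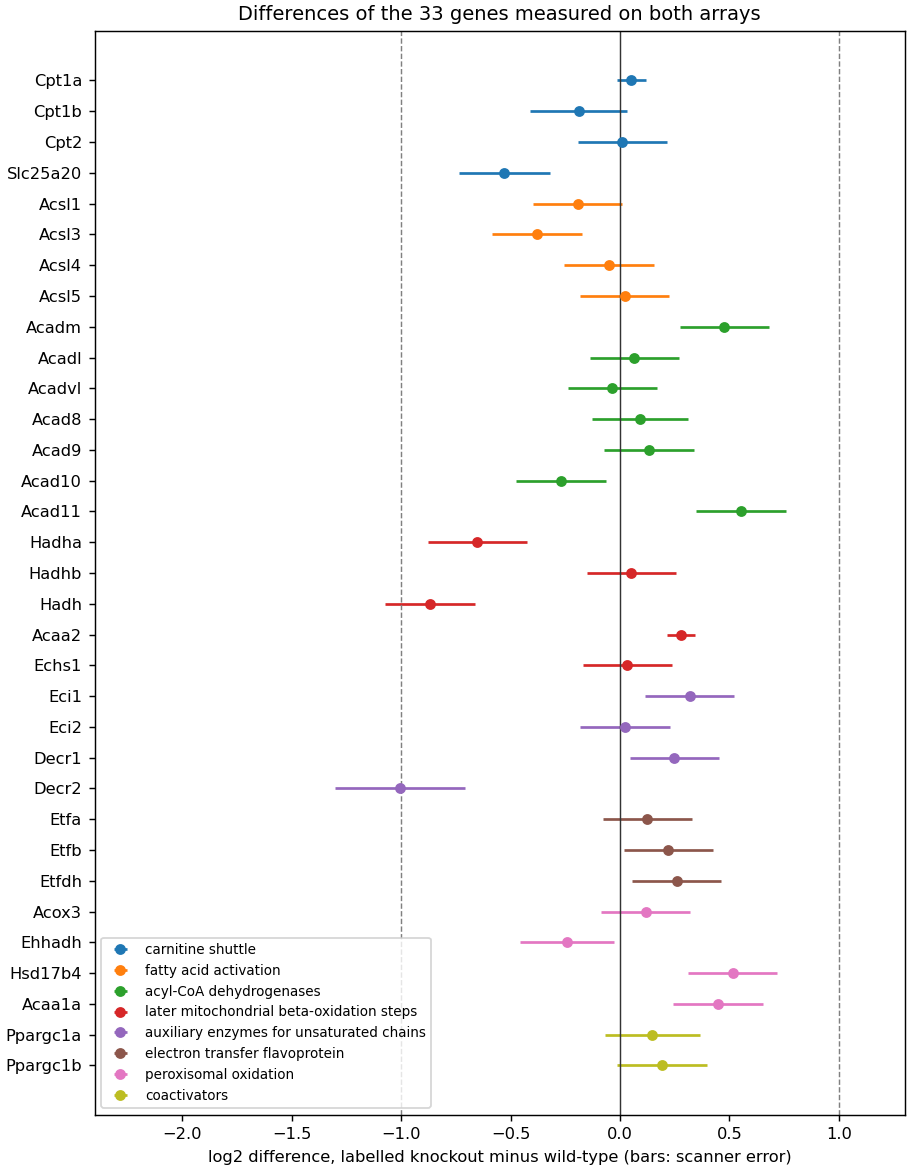
Log2 difference (array labelled knockout minus wild-type array) of the 33 genes measured on both arrays, coloured by role, with bars for the scanner error and dashed lines at 2-fold. All genes but Decr2 lie inside the dashed lines, Hadh, Hadha and Slc25a20 stand to the left, and Acad11, Hsd17b4, Acadm and Acaa1a stand to the right.

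The electron transfer flavoprotein, which takes electrons from the acyl-CoA dehydrogenases, was slightly higher on the array labelled knockout in all 3 of its genes. Etfa and Etfb, its subunits, had 0.12 ± 0.20 and 0.22 ± 0.20, and Etfdh, the oxidoreductase that passes the electrons to ubiquinone, had 0.26 ± 0.20. All 3 kept their sign in all 6 other scalings and sources, with differences from 0.08 to 0.49. A second, dimmer probe of Etfa gave -0.10 ± 0.21. Of the 3, only Etfdh stayed beyond its error in every one of these settings.

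Peroxisomal genes were higher in 3 of 4. Hsd17b4, the D-bifunctional protein that hydrates and dehydrogenates very long and branched chains, had signals of 1860 (wild-type) and 2540 (labelled knockout), 1.43-fold higher (0.51 ± 0.20). Acaa1a, the peroxisomal thiolase, had signals of 9360 and 12200, 1.36-fold higher (0.45 ± 0.20). It has a close paralogue, Acaa1b, described below, and binding of either transcript to the probe of the other was not tested. Ehhadh, the L-bifunctional protein of the same steps, was lower, at -0.24 ± 0.21 (signals 121 and 97.8), and was beyond its error in 2 of the 6 other settings (with loess, -0.09). Acox3, an oxidase for branched chains, had 0.12 ± 0.20 by a probe at 1640 and 1700 and -0.41 ± 0.24 by a dimmer one at 65.6 and 47.3. Hsd17b4 and Acaa1a were thus the peroxisomal genes beyond the error in all 6 other settings.

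Acot2, a mitochondrial thioesterase that releases fatty acids from acyl-CoA, was the other gene measured on 1 array only. It read 30.3 for wild-type and 2.11, not well above background, for the array labelled knockout. Against the lowest signal well above background there (9.60) it was at least 3.02-fold lower. This bound scales both signals by their array's 75th percentile.

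The coactivators Ppargc1a and Ppargc1b, encoding PGC-1α and PGC-1β, differed by less than their scanner error in the reported scaling. Ppargc1a read 102 for wild-type and 108 for the array labelled knockout (0.15 ± 0.22, but -0.46 under normexp). Its other probe, at 6.03 and 2.24, was too dim on each array to count as well above background. Ppargc1b had signals of 489 and 534 and a difference of 0.19 ± 0.20. Both differences lay above the same errors in 4 of the 6 other scalings and sources. These were median centring, quantile normalization, loess (0.31 and 0.23) and the deposited table.

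The differences followed the brightness of the probes. Of 3 genes with a mean signal below 100, all 3 were lower on the array labelled knockout, with a median of -0.65, and 38.1% of all genes in that class were higher (median -0.20). Between 100 and 1000, 5 of 11 were higher, with a median of -0.19, against 50.2% of all genes. From 1000 up, 17 of 19 were higher, with a median of 0.12, against 57.6% of all genes (median 0.05). After loess 16 of these 19 bright genes were above 0 with a median of 0.10, against 55.9% of all genes (median 0.04), and 15 of 19 were so in the values the authors deposited. Below 100, all 3 dim genes stayed below 0 after loess, with a median of -0.46, where all genes of that class had 0.00. The background flag was uneven here, since the lowest signals passing it were 24.6 for wild-type and 9.60 for the array labelled knockout. A gene dimmer on the latter could thus be kept where one as dim on the wild-type array was left out. Decr2, at 22.5 on the array labelled knockout, lay between these limits. Brightness also depends on the probe, so it ranks no gene against another. The classes were drawn after the data were seen.

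**Figure D3:**
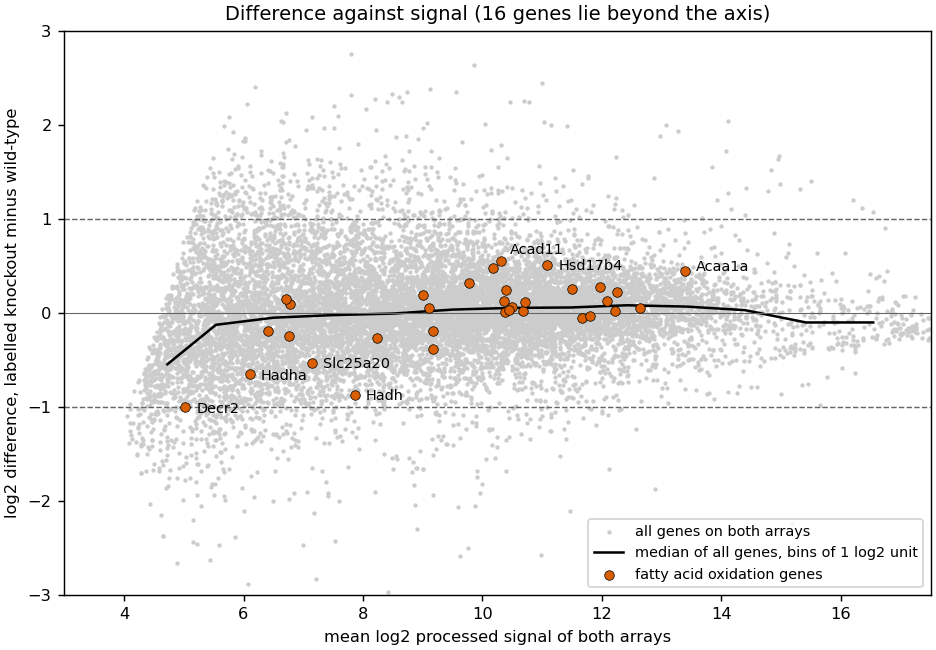
Log2 difference (array labelled knockout minus wild-type array) against the mean log2 processed signal, for all genes measured on both arrays (grey) with their median by signal (line) and for the 33 fatty acid oxidation genes (orange), with dashed lines at 2-fold. The line drops below 0 at the dim end, and Decr2, Hadha, Slc25a20 and Hadh lie below it while most bright orange points lie on or slightly above it.

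Genes with several probes allowed the comparison within a gene. In 5 genes (Cpt1a, Acsl1, Decr1, Etfa and Acox3) both arrays had a second probe well above background. In 4 of the 5 the dimmer probe had the opposite sign, and in these 4 it was the lower one. This comparison was not made over all genes with several probes. The dimmer probes of Cpt1a, Acsl1, Decr1 and Acox3 read below 100, a class in which 38.1% of all genes were higher. The largest gap was that of Cpt1a, -0.83 between its probes. After loess the signs still differed in 4 of the 5, now Cpt1a, Acsl1, Etfa and Acox3, and the dimmer Decr1 probe gave 0.15. Of the dimmer probes only that of Cpt1a then lay beyond its scanner error (-0.57 ± 0.34).

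The median of the set depended on the scaling. Centring on the median in place of the 75th percentile shifted every difference upward by 0.19. Then 24 of the 33 genes were above 0 with a median of 0.24, where 67.2% of all genes were above 0 with a median of 0.19. Relative to all genes the members' median lay 0.05 above in both. With normexp the median was 0.20, where all genes had -0.06, and 22 of 33 were above 0, against 46.3% of all genes. The share of higher among all genes past 2-fold was 52.1% in the reported scaling, 73.3% with median centring, 63.8% with quantile normalization, 65.7% with loess, 63.9% in the deposited table and 14.9% with normexp. Of the 33 genes, 27 kept their sign in all 6 other scalings and sources, 18 of them higher and 9 lower. Beyond their scanner error in every one of these were 8 higher genes (Acadm, Acad11, Acaa2, Eci1, Decr1, Etfdh, Hsd17b4 and Acaa1a) and 4 lower ones (Slc25a20, Hadha, Hadh and Decr2). These counts across settings were not made over all genes, so they do not set the pathway apart. In the reported scaling alone, 30.3% of all genes were beyond the error upward and 30.8% downward. Normexp itself followed brightness, with 0.6% of all genes below a signal of 100 higher (median -0.90) and 81.9% from 1000 up (median 0.29). Its values therefore add little for dim genes that were lower or bright genes that were higher. The mean over the probes of a gene is not among the 6 settings. With it Cpt1a stood at -0.36 and Acox3 at -0.14, both turned below 0. Decr1 then stood at 0.09, inside the error of its brighter probe (0.20).

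**Figure D4:**
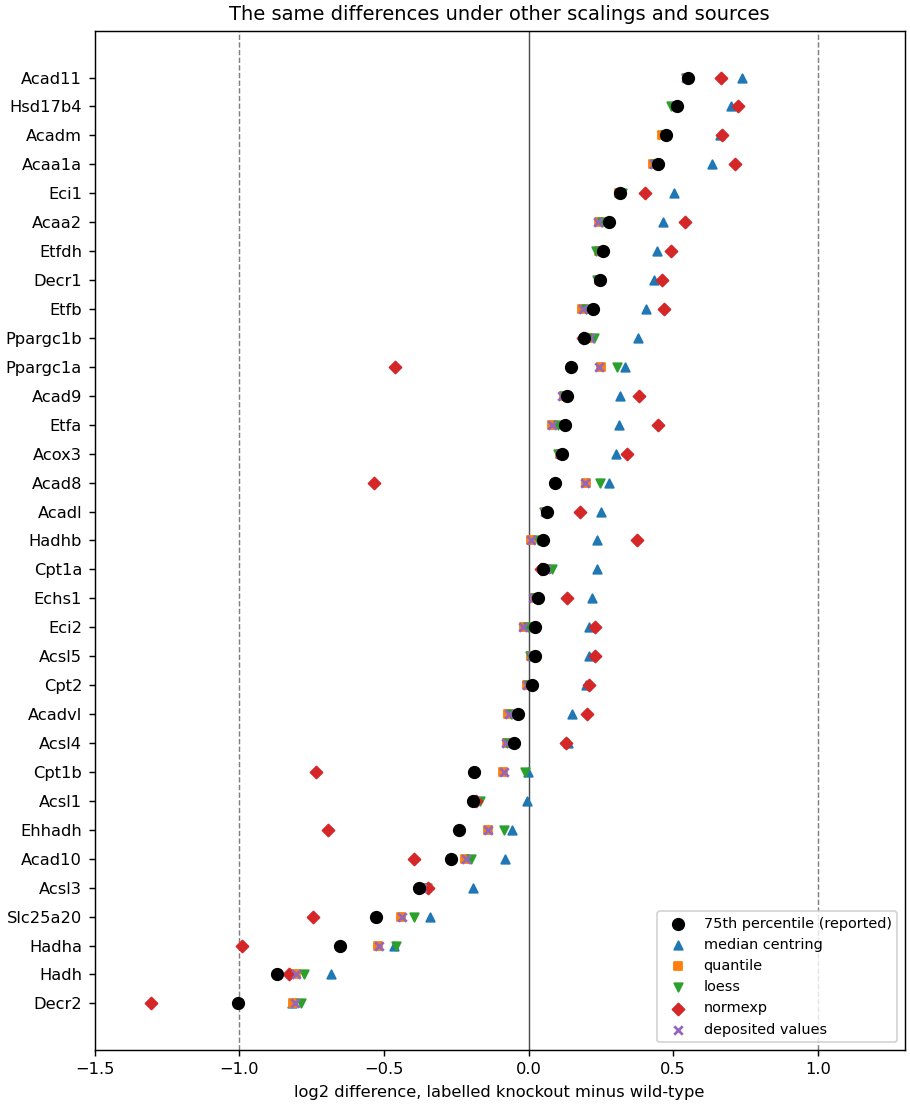
Log2 difference (array labelled knockout minus wild-type array) of the 33 genes in the reported scaling (black circles) and in 5 others, with dashed lines at 2-fold. Median centring moves every point to the right, and normexp spreads dim genes such as Ppargc1a, Acad8 and Cpt1b to the left.

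Genes around the pathway were read from 7 lists of 61 genes, of which 53 were measured on both arrays. Of these 53, 34 gave more signal under the knockout label and 19 gave less, with a median of 0.19. Past 2-fold were 1 higher (Pparg) and 1 lower (Cd36). Beyond the scanner error were 27 higher and 8 lower, and these counts were 27 and 7 with loess, 33 and 7 with median centring and 22 and 16 with normexp. Over all genes 50.4% were higher, 3.95% were past 2-fold higher and 3.63% past 2-fold lower. Beyond the error were 30.3% of all genes upward and 30.8% downward in the reported scaling, and this share was not counted in the other settings. With median centring 45 of the 53 genes were higher and 8 lower, where 67.2% of all genes were higher. The macrophage and adipocyte markers given above were also mostly higher on this array, and their part in these values was not tested.

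Uptake genes split. Cd36, a fatty acid translocase of the plasma membrane, had signals of 77.9 (wild-type) and 34.5 (labelled knockout), 2.16-fold lower (-1.11 ± 0.24). Its difference was -0.90 with loess, inside 2-fold. Slc27a3, of the fatty acid transport protein family, had signals of 389 and 624 and was 1.68-fold higher (0.75 ± 0.21). In this list 3 of 7 measured genes were higher and 4 lower, and 5 and 2 with loess.

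Other oxidation enzymes were higher in most cases. Further mitochondrial enzymes were higher in 8 of 11, 7 of them beyond the scanner error, with a median of 0.24. Gcdh, the glutaryl-CoA dehydrogenase of lysine breakdown, stood highest at 0.59 ± 0.21, and Nadk2, the mitochondrial NAD kinase, lowest at -0.56 ± 0.20. Further peroxisomal genes were higher in 9 of 11, 7 of them beyond the error and 0 lower beyond it, with a median of 0.23. Acaa1b, the second peroxisomal thiolase gene, had signals of 426 and 619 (0.60 ± 0.21), and Amacr, a racemase of branched chains, was at 0.54 ± 0.06 by a repeated probe. These list medians were 0.30 and 0.26 with loess. Crat, Acox2 and Acot4 were not well above background on either array.

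The malonyl-CoA brake, through which fatty acid synthesis restrains CPT1, showed no common direction, with 3 of 5 measured genes higher and a median of 0.07. Prkaa1, the AMP-activated kinase subunit that phosphorylates acetyl-CoA carboxylase, had signals of 828 and 498 and was 1.59-fold lower (-0.67 ± 0.20). Acacb, the carboxylase whose product restrains CPT1, was at 0.59 ± 0.21, and at -0.01 with normexp.

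Among the regulators Pparg stood apart from the other 9. Pparg, a nuclear receptor of lipid storage and of macrophages, was at 1.49 ± 0.07 (signals 81.5 and 219), and at 0.37 with normexp. Ppara, the receptor most tied to fatty acid oxidation, was at -0.32 ± 0.22 (signals 103 and 78.9). Of the 10 regulators, 5 were higher and 5 lower, with a median of 0.04. With median centring 9 were higher and 1 lower (median 0.22), where 67.2% of all genes were higher. Among PPAR targets 3 of 5 were higher, with a median of 0.55, which turned to 2 of 5 and -0.41 with normexp. Pdk4, which blocks pyruvate entry into mitochondria, was 1.92-fold higher (0.94 ± 0.27) from signals of 45.0 and 82.7, past 2-fold with loess (1.14) but at -0.41 with normexp. Ucp3, an uncoupling protein homologue, was 1.85-fold lower (-0.88 ± 0.21).

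Lipolysis genes were higher in 3 of 4 (median 0.38), but in 2 of 4 with normexp (median -0.12), with Mgll, the monoglyceride lipase, at 0.62 ± 0.20 and Lipa, the lysosomal acid lipase, at -0.45 ± 0.21.

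**Figure D5:**
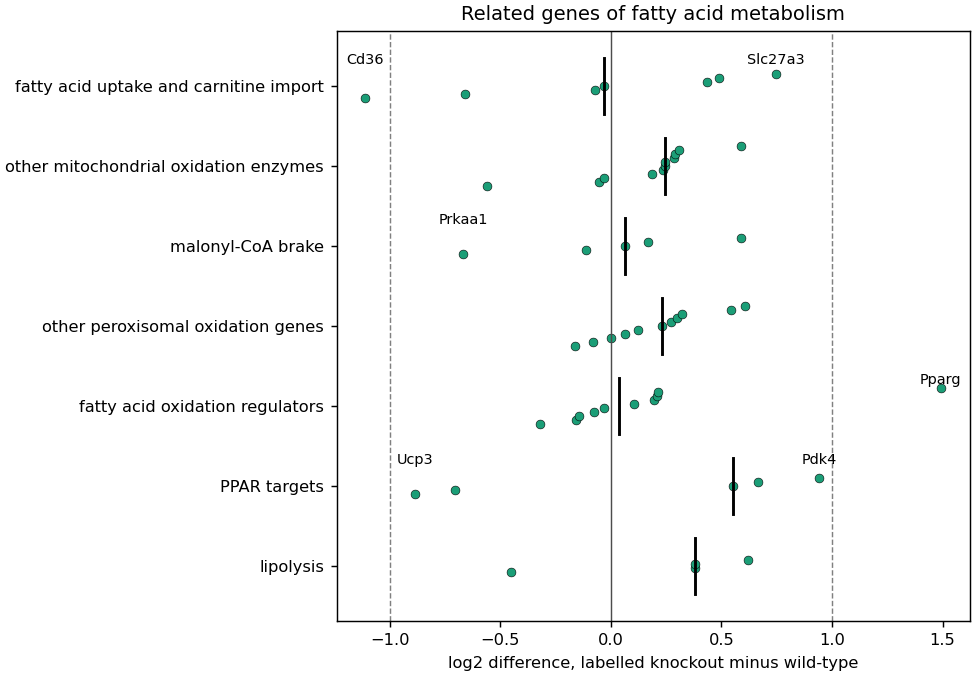
Log2 difference (array labelled knockout minus wild-type array) of the 53 related genes measured on both arrays, 1 row per list, with the list median as a vertical bar and dashed lines at 2-fold. Pparg lies past the right dashed line and Cd36 past the left one, and the medians lie between -0.03 and 0.55.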

How the data were processed

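RNA of 1 wild-type and 1 SIRT1flox/flox-CD4-Cre TH9 culture was hybridised to 1 array each, on 1 slide. Per the submitters' processing notes, Agilent Feature Extraction 11.0.1.1 read the scans. Per the file headers, its output holds for every spot an intensity, the processed signal, adjusted within the array only, and the error of that signal. The deposited value table holds the authors' log2 values, with method and centring not given in the sources used here. Its medians were equal in both columns (5.36), and it followed the scanner signal at all 41 single-spot probes of these genes.

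Control spots and spots flagged as outliers (228 and 138 of 43020 gene spots) were left out, no spot was saturated, and spots of a probe were averaged on the log2 scale. The 75th percentiles were 544 and 520. Probes were matched to genes through unversioned RefSeq accessions of a GRCm38.p6 table (27220 of 39411 probes). The headers name another build for the array design, so that table gives no probe or gene coordinates here; those of the promoter stretch are the promoter table's own. The brightest probe of a gene stood for it, provided either array had it well above background. Flags of the scanner software (other values, per the file headers) gave background and outlier status. No test was run, since 1 array per genotype allows none, and the number of arrays limits precision. The code for the calls was also run on simulated arrays, with planted changes well past the 2-fold threshold and only scanner error as noise. Such a run checks the code and says nothing of differences as small as those of the members or of the spread between cultures. The members and lists were chosen with earlier results of these data known. Every member is named, with signals for Cpt1a, Cpt2, Hadha, Hadhb, the 6 highest and lowest and those with a dim probe, and from each list the 2 genes with the largest difference. Of the lists, 1 pathway list and 1 marker gene are not reported here and enter no count. Cidea, Siglech and Fabp4 were chosen for mention after their values were seen. Alternatives used limma 3.58.1 in R 4.3.3 for normexp (offset 50, on median pixel intensity), quantile normalization and loess (span 0.3).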

Additional observations from a re-analysis of the deposited data

How the results depend on the processing

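The count of genes at least 2-fold higher was 0 in all settings run. The count at least 2-fold lower, 1 as reported, was 0 with median centring, quantile normalization, loess, the deposited table, outlier-flagged spots kept and a 3-fold threshold, 2 with genes counted whatever their background flag, and 3 at a 1.5-fold threshold. It stayed at 1 with the other percentile, the mean over probes and normexp. The number of genes beyond the scanner error was 16 as reported, 25 with median centring and 26 with normexp, where the settings for this count were chosen after seeing the data. Median centring moves every gene on the arrays upward alike. The share of all genes beyond the error was counted in the reported scaling only (30.3% upward and 30.8% downward). The median of the 33 genes ran from 0.02 (mean over probes) to 0.24 (median centring), and the number above 0 from 20 to 24. No called difference turned its sign. Among single genes, 20 of 33 moved by more than their scanner error with normexp and 2 with median centring and with the mean over probes, 0 in the other settings. Over all genes the calls past 2-fold were 512 higher and 471 lower as reported, 801 and 292 with median centring, 206 and 1179 with normexp, and 1420 and 1549 at 1.5-fold. No paired analysis was possible because each genotype has 1 array, and for the same reason no replicate could be left out. Signals near background set the limit for Acads, Acot2 and Decr2.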
